A study of Homo sapiens with 8 samples.

Results

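The G2 and mitosis genes described here are 40 genes whose products take a cell from G2 through mitosis and cytokinesis. They were taken by gene symbol from a list drawn up with earlier results of these data known, with no threshold on their values, and all 40 were found among the 60564 genes of the count table and had enough counts to be tested. The RNA came from the human line AB8/13, made from podocytes, the epithelial cells that wrap the filtering capillaries of the kidney. The line is conditionally immortalised with a temperature-sensitive SV40 large T antigen, which drives division at the permissive temperature and is inactivated at body temperature. The 4 ATOH8 knockdown libraries came from cells transfected with an shRNA against ATOH8, a basic helix-loop-helix transcription factor, and the 4 control libraries from cells transfected with a non-targeting shRNA. Cells of both groups had grown at 33 °C and had been kept at 37 °C for 5 days to differentiate, and both had received the same lipid reagent. How many shRNAs were used, and whether the libraries of a group came from separate cultures, is not stated in those labels. A p-value here therefore compares groups against the variation from library to library, some of which may be technical.

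Entry into mitosis is driven by CDK1 bound to cyclin A or cyclin B. Polo-like and Aurora kinases then build the spindle, kinetochore proteins tie chromosomes to microtubules, and the spindle checkpoint holds back the anaphase-promoting complex, or APC/C, until every chromosome is attached. CDC20 and UBE2C then let the APC/C destroy securin and cyclin B, and PRC1, anillin and ECT2 divide the cell. Most of these genes are silent in resting cells and are transcribed together late in the cycle, when the MuvB complex, with B-MYB and FOXM1, acts at promoters that hold a cell cycle genes homology region (CHR) and CCAAT boxes bound by NF-Y. Podocytes in the kidney scarcely divide, so these genes are low in the mature cell.

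Library totals ran from 23229160 to 25277868 counts in ATOH8 knockdown and from 21108695 to 27109043 in control. ATOH8 itself had 2.19, 2.79, 2.63 and 2.11 CPM (counts scaled to library size) in knockdown libraries 1 to 4, against 6.56, 6.004, 5.80 and 4.97 CPM in control libraries 1 to 4. Every knockdown library lay below every control library (exact two-sided permutation test, p = 0.0286, the smallest that 4 against 4 allows). As a check of the labelled cell type, 10 of 14 podocyte genes had enough counts to be tested, WT1 and SYNPO among them, but NPHS1 (nephrin) had 2 to 6 counts in knockdown and 0 to 2 in control libraries. Markers of other cells were mixed. Of the endothelial genes, EMCN was at 0 in all 8 libraries and PECAM1 had 0 or 1 count, but TIE1 had 150 to 171 counts in knockdown and 18 to 33 in control libraries. Of the leukocyte genes, PTPRC had 0 to 2 counts in any library, but ITGAM had 17 to 36 in knockdown and 4 to 6 in control libraries and CD68 had 2335 to 2767 in knockdown and 1697 to 2274 in control libraries.

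All 40 genes were lower in ATOH8 knockdown at an adjusted p under 0.05, and none was higher. Over all 16884 genes tested, 25.9% were lower by the same test (edgeR quasi-likelihood, Benjamini-Hochberg) and 25.2% were higher. The median log2 fold change of the 40 genes was -0.63, against -0.00072 over all genes tested, and single genes ran from -1.34 for HMMR to -0.14 for FOXM1. A fall of at least 2-fold was found for 6 of the 40, namely HMMR, ASPM, KIF20A, PLK1, KIF14 and AURKA, where 1.2% of all genes tested fell as far. Knockdown and control libraries did not overlap for 39 of the 40, with FOXM1 the exception, while 23.2% of all genes tested lay wholly lower in knockdown and 45.6% were apart in either direction. Since RNA was taken from whole cultures, fewer cells in G2 and mitosis and less of these RNAs in each such cell cannot be told apart.

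**Figure D1:**
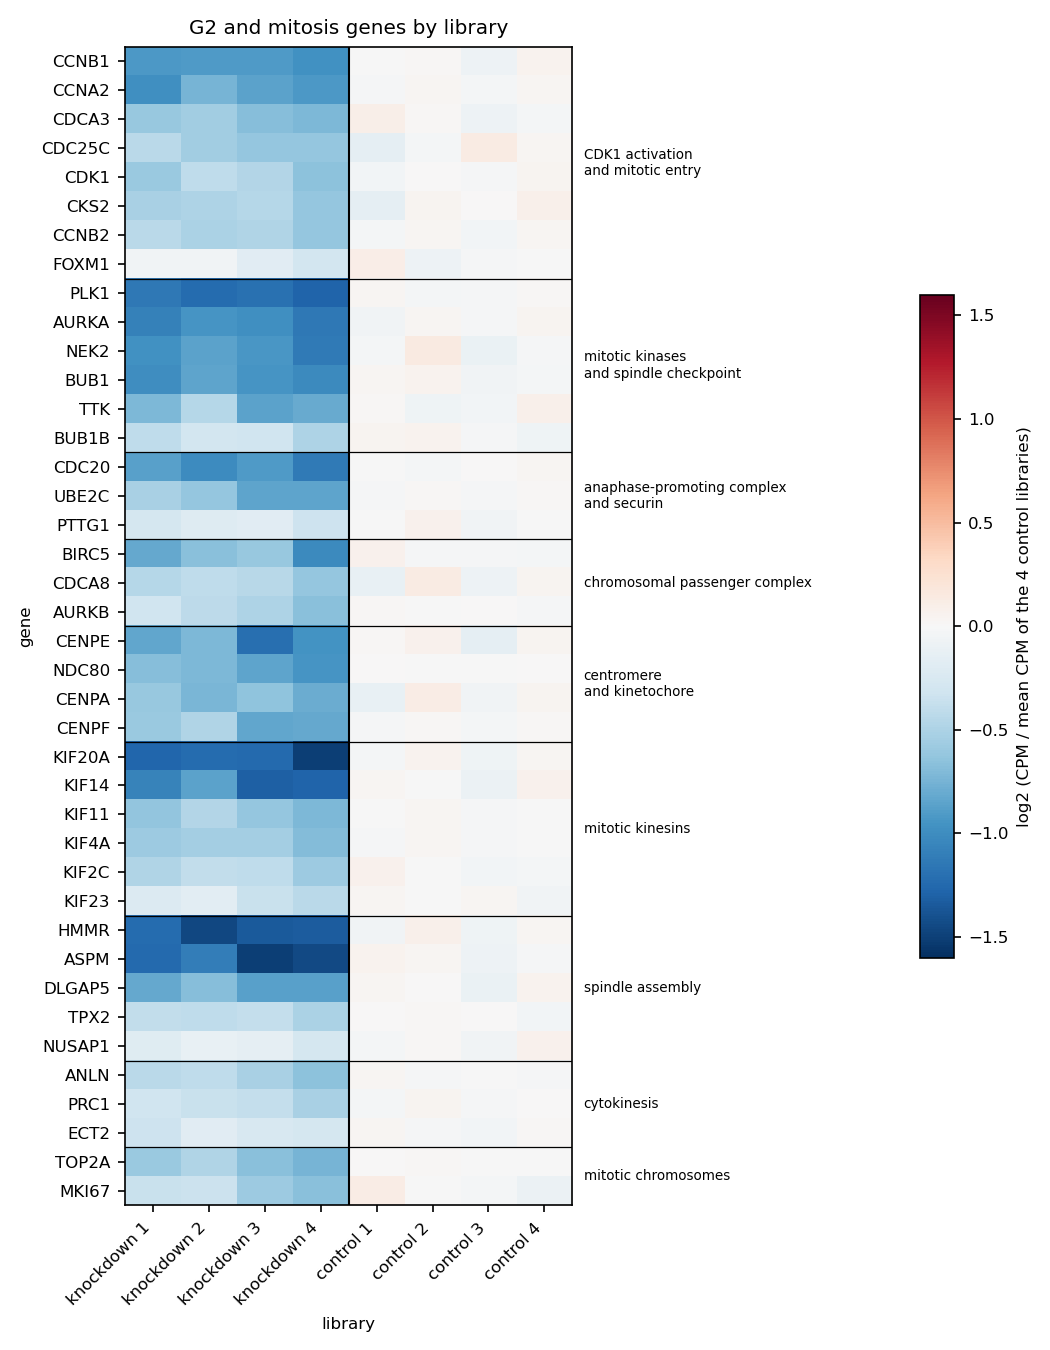
Level of each of the 40 genes (rows, grouped by role) in each of the 8 libraries (columns), as log2 of CPM over the mean CPM of the 4 control libraries, with blue below that mean and red above it. The knockdown columns are blue in nearly every row, darkest for HMMR, ASPM and KIF20A and close to white for FOXM1 and NUSAP1.

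The promoters are shown first because the shared late-cycle pattern of these genes is known to be written there. RefSeq windows of GRCh38.p14, from 250 bases before to 50 after the start of a gene, were matched by symbol for 34 of the 40 genes. FOXM1, AURKA, TTK, UBE2C, BIRC5 and TPX2 had no entry. Only the first listed window of each symbol was searched, 27305 of 35116, so words in other windows of a gene were not counted. A CHR word (TTTGAA or TTCGAA) stood in 25 of the 34 windows (73.5%), against 11.2% of the windows of 11710 tested genes and 16.6% of all 27305 windows. At least 1 CCAAT word stood in 28 of the 34 (82.4%), against 36.4% of tested genes and 35.7% of all windows, and at least 2 in 18 of the 34 (52.9%), against 13.5% and 11.3%. Both kinds of word were present in 22 of the 34 windows (64.7%), 4.71% of those of tested genes and 6.58% of all. Words were searched on both strands and could share bases.

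Windows of 5 genes that hold a CHR word are printed from 120 bases before the start to 20 after it, with CHR and CCAAT words, on either strand, in capitals. HMMR is shown because it fell furthest, with a doubled CHR word 28 and 22 bases before the start. PLK1 and CCNB2, a kinase and a cyclin, hold their word at the same distance, 29 bases before the start. CDC20 and BUB1 are shown because they act against each other in the spindle checkpoint, CDC20 with a CHR word 65 bases before the start and BUB1 with one at base 2 after it.
HMMR, chr5:163460512-163460651, plus strand: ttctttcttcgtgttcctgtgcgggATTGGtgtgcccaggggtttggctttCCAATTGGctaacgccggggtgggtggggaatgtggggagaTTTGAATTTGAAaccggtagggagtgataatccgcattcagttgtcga
PLK1, chr16:23678769-23678908, plus strand: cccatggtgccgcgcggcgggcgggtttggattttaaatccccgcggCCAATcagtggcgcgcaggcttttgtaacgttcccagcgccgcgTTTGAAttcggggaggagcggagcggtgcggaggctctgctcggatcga
CCNB2, chr15:59105026-59105165, plus strand: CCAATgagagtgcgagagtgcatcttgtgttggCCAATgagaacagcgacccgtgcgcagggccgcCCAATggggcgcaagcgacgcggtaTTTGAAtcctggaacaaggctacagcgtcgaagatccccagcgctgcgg
CDC20, chr1:43358861-43359000, plus strand: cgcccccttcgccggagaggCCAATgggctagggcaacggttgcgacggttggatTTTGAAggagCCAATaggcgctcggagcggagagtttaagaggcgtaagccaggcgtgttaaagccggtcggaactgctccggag
BUB1, chr2:110678044-110678183, minus strand: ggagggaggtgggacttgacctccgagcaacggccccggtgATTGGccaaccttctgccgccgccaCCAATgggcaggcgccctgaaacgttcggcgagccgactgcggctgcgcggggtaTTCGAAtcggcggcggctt

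KIF20A and CCNB1, which also fell strongly, had CCAAT words but neither TTTGAA nor TTCGAA in their windows. Other spellings of the CHR were not searched, so a window without these words may still hold the element.
KIF20A, chr5:138178992-138179131, plus strand: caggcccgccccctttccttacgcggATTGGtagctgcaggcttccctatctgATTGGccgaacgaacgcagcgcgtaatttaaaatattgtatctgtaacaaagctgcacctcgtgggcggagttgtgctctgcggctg
CCNB1, chr5:69167030-69167169, plus strand: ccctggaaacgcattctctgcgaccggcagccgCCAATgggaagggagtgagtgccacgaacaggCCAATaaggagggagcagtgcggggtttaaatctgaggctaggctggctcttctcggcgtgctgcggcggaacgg

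The CHR word often stood close to the start of the gene. Its first base lay between 60 bases before the start and 20 after it in 19 of the 34 windows (55.9%), against 2.68% of windows of tested genes. E2F words (TTTCCCGC, TTTGGCGC, TTTGCCGC or TTTCGCGC), the letters linked to G1/S genes, stood in 3 of the 34 (8.82%), against 5.23% of tested genes and 22 of 42 windows of G1/S and replication genes (52.4%). Among the 34 genes, the median log2 fold change was -0.61 for the 22 with both words (range -1.34 to -0.181). It was -0.90 for the 6 with CCAAT alone (-1.31 to -0.248) and -0.50 for the 3 with CHR alone (-0.796 to -0.375). For the 3 with neither it was -0.55 (-0.917 to -0.462). These ranges overlapped, and the sorting rests on the CHR spellings searched, so the medians do not compare genes with and without a CHR. Among tested genes outside the set, 34.2% of 530 with both words were lower and 22.1% higher, with a median log2 fold change of -0.04, and 28.6% of 6692 with neither word were lower and 27.6% higher, with a median of 0.00038. The 530 include 31 genes from a list of 76 other G2 and mitosis genes. Of all 76, 75% were lower, and the share among the 31 was not counted. Word matches are letters in a fixed window and show no binding.

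**Figure D2:**
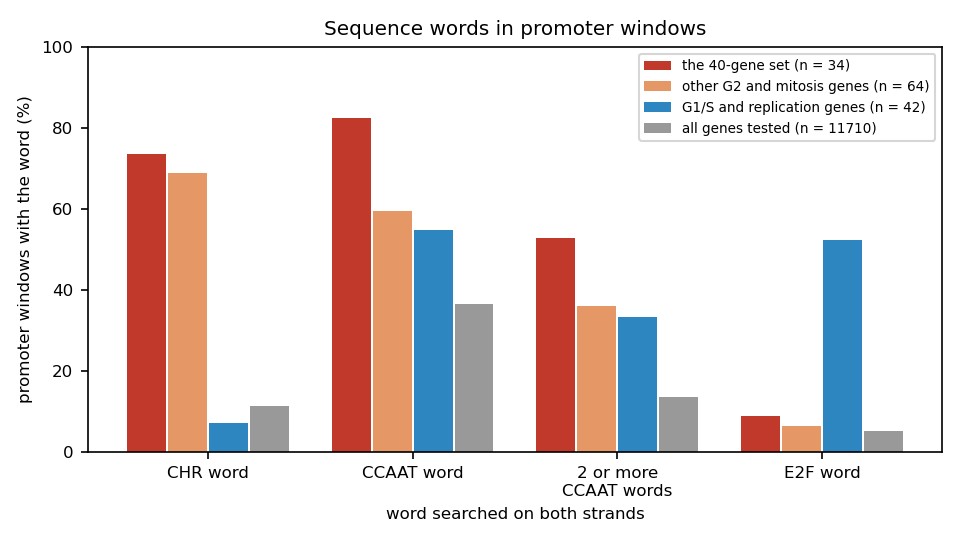
Share of promoter windows (vertical axis, %) that hold a CHR word, a CCAAT word, at least 2 CCAAT words or an E2F word, as bars for the 40-gene set (34 windows), other G2 and mitosis genes (64), G1/S and replication genes (42) and all tested genes (11710). The CHR word marked 73.5% of the set and 68.8% of the other G2 and mitosis genes but 7.14% of G1/S and replication genes, whereas E2F words marked 8.82%, 6.25% and 52.4%.

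The genes that switch on CDK1 and start mitosis all fell, with a median log2 fold change of -0.54 over 8 genes. CCNB1 (ENSG00000134057.15, chromosome 5), cyclin B1, the main partner of CDK1 at mitotic entry, had 61.7, 62.5, 62.3 and 59.4 CPM in knockdown libraries, against 116.0, 118.5, 110.6 and 121.7 CPM in control libraries. CCNA2 (ENSG00000145386.10, chromosome 4), cyclin A2, which acts earlier in S and G2, had 31.6, 37.1, 34.5 and 32.9 CPM in knockdown libraries, against 61.3, 63.4, 60.7 and 63.4 CPM in control libraries. Both cyclins thus stood far below the control range in all 4 knockdown libraries. The log2 fold change was -0.93 for CCNB1 (SE 0.0366, edgeR adjusted p = 2.71e-18) and -0.87 for CCNA2 (SE 0.0452, edgeR adjusted p = 1.31e-15).

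CDK1, the kinase itself, fell less, to 83.5 ± 6.59 CPM in knockdown, against 120.7 ± 3.34 CPM in control (SD, n = 4 each; log2 -0.53, SE 0.0438, edgeR adjusted p = 9.7e-10). CCNB2, the second B-type cyclin, and CKS2, a small CDK-binding subunit, moved by close to the same amount, -0.51 and -0.52. CDC25C, the phosphatase that removes the inhibitory phosphates from CDK1, and CDCA3, which promotes the destruction of the CDK1 inhibitor WEE1, had log2 fold changes of -0.55 and -0.64. FOXM1 (ENSG00000111206.12, chromosome 12), a transcription factor of late-cycle genes, had 64.2, 64.0, 58.8 and 54.4 CPM in knockdown libraries, against 71.5, 62.6, 65.7 and 66.1 CPM in control libraries. Knockdown libraries 1 and 2 lay above control library 2, so the groups overlapped, and the fall was the smallest of the 40 (log2 -0.14, SE 0.0515, edgeR adjusted p = 0.029). The FOXM1 call was lost without control 1 or 4 or knockdown 3 or 4, at edgeR adjusted p of 0.0589 to 0.095. The annotated exons of FOXM1 share 15.9% of their length with ITFG2 on the opposite strand, and ITFG2 had a log2 fold change of 0.10 (edgeR adjusted p = 0.289).

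The role of mitotic kinases and spindle checkpoint fell most of all roles as grouped here, with a median log2 fold change of -0.96 over 6 genes. The kinases CDK1 and AURKB were placed in other roles and moved by -0.53 and -0.47. PLK1 (ENSG00000166851.15, chromosome 16), the polo-like kinase that matures centrosomes, had 18.9, 17.8, 18.3 and 17.2 CPM in knockdown libraries, against 42.8, 40.8, 41.3 and 42.3 CPM in control libraries. AURKA (ENSG00000087586.17, chromosome 20), the spindle-pole Aurora kinase, had 38.4, 42.3, 41.4 and 37.0 CPM in knockdown libraries, against 78.2, 83.0, 80.6 and 84.1 CPM in control libraries. In neither gene did the highest knockdown library come near the lowest control library. PLK1 was 56.8% lower (log2 -1.21, SE 0.0484, edgeR adjusted p = 3.38e-18) and AURKA 51.1% lower (log2 -1.03, SE 0.0427, edgeR adjusted p = 7.9e-18). NEK2, which separates centrosomes, and BUB1, a checkpoint kinase that sits on kinetochores, had log2 fold changes of -0.97 and -0.95, and TTK (MPS1), which starts checkpoint signalling, -0.70. BUB1B, which encodes the checkpoint protein BUBR1, fell least of them, to 39.1 ± 2.57 CPM in knockdown, against 50.7 ± 2.11 CPM in control (SD, n = 4 each; log2 -0.38, SE 0.047, edgeR adjusted p = 1.02e-07).

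The genes around the anaphase-promoting complex split into a large and a small fall. CDC20 (ENSG00000117399.14, chromosome 1), the activator that the checkpoint blocks, had 30.1, 27.3, 29.4 and 24.997 CPM in knockdown libraries, against 54.5, 53.6, 55.4 and 56.3 CPM in control libraries (log2 -0.98, SE 0.0491, edgeR adjusted p = 6.46e-16). UBE2C, the ubiquitin-conjugating enzyme that starts chains for the complex, had 32.7, 30.5, 26.1 and 26.0 CPM in knockdown libraries, against 46.1, 47.2, 46.1 and 47.3 CPM in control libraries (log2 -0.70, SE 0.0581, edgeR adjusted p = 1.43e-09). The control values of both genes were tight, and the knockdown values more spread, with libraries 3 and 4 lowest for UBE2C. PTTG1, securin, which holds separase inactive until anaphase, moved by only -0.25 on the log2 scale (SE 0.0436, edgeR adjusted p = 2.2e-05). The CDC20 pseudogene CDC20P1 had 29 to 76 counts and was also lower (log2 -0.77, edgeR adjusted p = 0.000764), and the UBE2C copy UBE2CP5 had 100 to 122 counts with no change called, so how reads were shared between these genes and their copies is uncertain.

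The 3 genes of the chromosomal passenger complex, which corrects faulty attachments and later acts at the midzone, had a median log2 fold change of -0.48. AURKB (ENSG00000178999.13, chromosome 17), its kinase, had 36.6, 34.01, 32.3 and 28.6 CPM in knockdown libraries, against 46.3, 45.3, 45.7 and 44.8 CPM in control libraries. CDCA8 (borealin) had 25.2, 26.1, 25.4 and 22.4 CPM in knockdown libraries, against 31.8, 37.9, 32.6 and 35.7 CPM in control libraries. The groups stayed apart for both, by log2 fold changes of -0.47 (SE 0.0537, edgeR adjusted p = 5.18e-08) and -0.48 (SE 0.058, edgeR adjusted p = 1.14e-07). BIRC5 (survivin) fell further, to 33.8 ± 4.23 CPM in knockdown, against 57.7 ± 1.85 CPM in control (SD, n = 4 each; log2 -0.77, SE 0.0721, edgeR adjusted p = 1.98e-06). INCENP, the scaffold of the complex, is outside the 40 genes and was chosen for mention after its value was seen; its log2 fold change was -0.47 (edgeR adjusted p = 5.58e-06).

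Genes of the centromere and kinetochore had a median log2 fold change of -0.75 over 4 genes. NDC80 (ENSG00000080986.13, chromosome 18), the microtubule-binding subunit of the outer kinetochore, had 27.8, 27.1, 24.8 and 23.1 CPM in knockdown libraries, against 44.7, 44.4, 44.5 and 44.9 CPM in control libraries. CENPA, the histone H3 variant that marks centromeres, was low in both groups, with 5.20, 4.79, 5.08 and 4.58 CPM in knockdown libraries, against 7.35, 8.63, 7.65 and 8.19 CPM in control libraries. NDC80 was almost constant over the control libraries and 42.4% lower in knockdown (log2 -0.80, SE 0.0504, edgeR adjusted p = 1.08e-13), and CENPA was 38.2% lower (log2 -0.70, SE 0.0944, edgeR adjusted p = 3.86e-07). CENPE, a kinetochore motor, and CENPF, a large coiled-coil protein of the late-cycle nucleus and kinetochore, had log2 fold changes of -0.92 (SE 0.0983) and -0.67 (SE 0.0811), with larger errors than NDC80. CENPF stood at 159.7 ± 19.1 CPM in knockdown, against 255.0 ± 4.67 CPM in control (SD, n = 4 each, edgeR adjusted p = 0.000316).

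The 6 mitotic kinesins, motors that move along or trim spindle microtubules, ranged widely. KIF20A (MKLP2; ENSG00000112984.12, chromosome 5), which carries the passenger complex to the midzone, had 16.7, 17.2, 17.05 and 14.3 CPM in knockdown libraries, against 39.8, 42.2, 38.7 and 41.2 CPM in control libraries. KIF11 (Eg5), which pushes the spindle poles apart, had 54.6, 61.2, 55.4 and 51.7 CPM in knockdown libraries, against 84.5, 86.7, 83.5 and 84.6 CPM in control libraries. All knockdown values were below all control values, and KIF20A fell by 59.7% (log2 -1.31, SE 0.0555, edgeR adjusted p = 1.18e-17) where KIF11 fell by 34.3% (log2 -0.61, SE 0.0416, edgeR adjusted p = 6.28e-13). KIF14 (ENSG00000118193.12, chromosome 1), a kinesin of cytokinesis, also fell more than 2-fold (log2 -1.11, SE 0.0827, edgeR adjusted p = 1.93e-07). The chromokinesin KIF4A and the microtubule depolymerase KIF2C had log2 fold changes of -0.59 and -0.46, and KIF23 (MKLP1), the motor of the centralspindlin complex, the smallest of the 6 at -0.29.

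Spindle assembly genes held both the largest fall of the 40 and one of the smallest. HMMR (ENSG00000072571.20, chromosome 5), a microtubule-binding protein of the spindle poles that is also known as the hyaluronan receptor RHAMM, had 19.1, 16.4, 17.7 and 17.8 CPM in knockdown libraries, against 43.1, 47.6, 42.8 and 46.0 CPM in control libraries. DLGAP5 (HURP), which stabilises microtubules near chromosomes, had 28.3, 31.1, 27.4 and 27.4 CPM in knockdown libraries, against 51.2, 50.4, 46.5 and 51.9 CPM in control libraries. Both genes were clear of the control range in each knockdown library, HMMR at 60.5% lower (log2 -1.34, SE 0.053, edgeR adjusted p = 2.71e-18) and DLGAP5 at 42.9% lower (log2 -0.81, SE 0.0487, edgeR adjusted p = 3.34e-14). ASPM (ENSG00000066279.18, chromosome 1), which focuses spindle poles, fell by nearly as much as HMMR but with more spread, to 45.3 ± 5.82 CPM in knockdown, against 112.8 ± 4.76 CPM in control (SD, n = 4 each; log2 -1.32, SE 0.0834, edgeR adjusted p = 3.08e-06). TPX2, the activator of AURKA on the spindle, moved by -0.42, where AURKA itself moved by -1.03. NUSAP1, which bundles microtubules, moved by -0.18 (SE 0.0379, edgeR adjusted p = 0.0002); 62.2% of its annotated exon length is shared with another gene on its strand, so its count is uncertain.

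Among the roles as grouped here, the 3 genes placed under cytokinesis fell least, with a median log2 fold change of -0.39. KIF14, also a gene of cytokinesis, was placed with the kinesins and moved by -1.11, so the ranking depends on the grouping. PRC1, which crosslinks midzone microtubules, had 110.4, 108.2, 105.6 and 96.5 CPM in knockdown libraries, against 134.7, 142.0, 136.2 and 138.8 CPM in control libraries. ANLN (anillin; ENSG00000011426.11, chromosome 7), a scaffold of the contractile ring, had 231.0, 236.0, 217.8 and 198.4 CPM in knockdown libraries, against 318.4, 309.4, 312.4 and 309.5 CPM in control libraries. The groups were separate for both genes, with knockdown library 4 the lowest each time. The log2 fold change was -0.39 for PRC1 (SE 0.0373, edgeR adjusted p = 6.12e-10), whose exons also overlap another annotated gene on the same strand over 57.6% of their length, and -0.50 for ANLN (SE 0.0414, edgeR adjusted p = 3.57e-09). ECT2, the exchange factor that switches on RhoA at the cleavage site, moved by -0.26 (SE 0.0344, edgeR adjusted p = 2.39e-07).

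MKI67 and TOP2A, the usual tissue markers of dividing cells, were abundant in both groups. MKI67 (ENSG00000148773.14, chromosome 10), Ki-67, which coats mitotic chromosomes, had 248.0, 250.8, 211.5 and 200.7 CPM in knockdown libraries, against 345.3, 316.9, 310.9 and 297.8 CPM in control libraries. TOP2A (ENSG00000131747.15, chromosome 17), the topoisomerase that untangles sister chromatids, had 255.1, 277.0, 244.0 and 230.0 CPM in knockdown libraries, against 386.9, 392.4, 383.1 and 383.1 CPM in control libraries. Neither gene overlapped between the groups, yet MKI67 varied in both, and its adjusted p was the second largest of the 40 after that of FOXM1. The change on the log2 scale was -0.48 for MKI67 (SE 0.0897, edgeR adjusted p = 0.00391) and -0.62 for TOP2A (SE 0.0424, edgeR adjusted p = 6e-10).

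**Figure D3:**
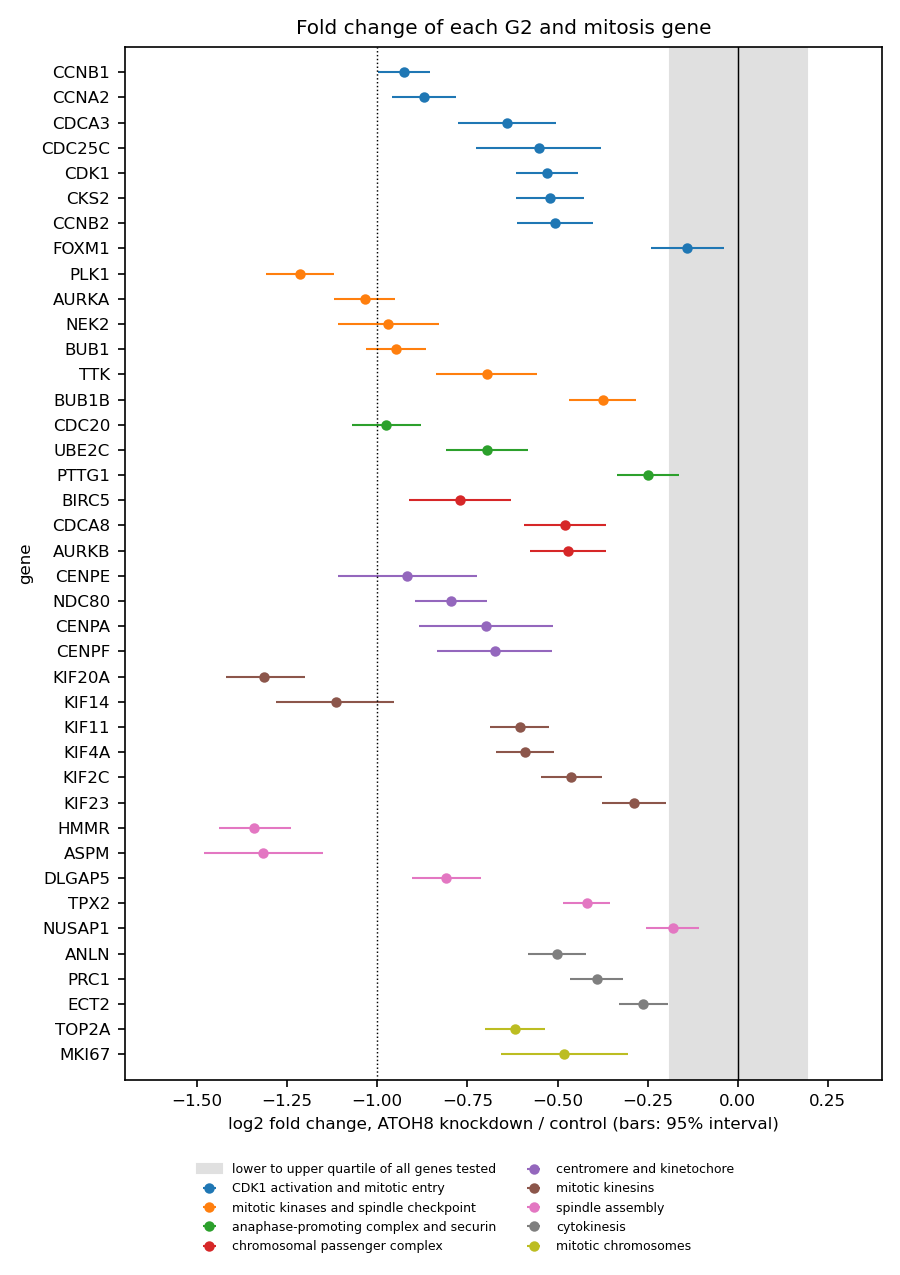
Log2 fold change of ATOH8 knockdown over control (horizontal axis) for each of the 40 genes (rows, coloured by role), with bars for the 95% interval; the grey band runs from the lower to the upper quartile of all genes tested (-0.19 to 0.19) and the dotted line marks a 2-fold fall. All 40 points lie left of 0, and 6 lie at or beyond the dotted line.

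Levels can be compared between genes only per length. Per kilobase of annotated exon, CKS2 was highest, at 60.4 CPM per kilobase in knockdown and 86.7 in control, and TPX2 at 39.4 and 52.6 and TOP2A at 39.1 and 60.0 came next. CDCA3 was lowest, at 1.69 CPM per kilobase in knockdown and 2.63 in control, and CDC25C was next at 1.88 and 2.76. The genes that fell at least 2-fold were not among these extremes. The lengths come from the union of annotated exons in GENCODE release 29, which can exceed the transcripts these cells use.

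Summed over the 40 genes, the level was 2448, 2558, 2347 and 2195 CPM in knockdown libraries, against 3635, 3640, 3532 and 3600 CPM in control libraries. The mean was 2387 ± 154 CPM in knockdown and 3602 ± 49.9 CPM in control (SD, n = 4 each), a level 33.7% lower. The knockdown libraries differed more among themselves than the control libraries did, and in a shared order. Knockdown library 2 was the highest of its group for 25 of the 40 genes and library 4 for none, whereas library 4 was the lowest for 30 of the 40. The share of all genes tested with that order was not counted. Knockdown library 4 also had the lowest sum for other G2 and mitosis genes (3954 CPM) and for G1/S and replication genes (4543 CPM). For APC/C genes the lowest was knockdown library 1 (825.6 CPM). The coefficient of variation was larger in knockdown for 35 of the 40 genes, with medians of 6.79% in knockdown and 3.42% in control. Over the 11860 tested genes at or above the level of the lowest of the 40, the medians were 4.58% in knockdown and 3.96% in control, and 59.1% of those genes varied more in knockdown.

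Several of the more variable genes were long, though TTK, BIRC5 and UBE2C, which are shorter, varied by similar amounts in knockdown, with coefficients of 12.6%, 12.5% and 11.5%, against 12.0% for CENPF and 11.1% for MKI67. The following contrast of libraries and its length limit were chosen after the values were seen. CENPE, CENPF, KIF14, ASPM and MKI67 have more than 7000 bases of annotated exon, and in all 5 of them knockdown libraries 3 and 4 both lay below libraries 1 and 2, as they did in 12 of the 35 shorter genes. ASPM had 47.7, 52.4, 39.7 and 41.4 CPM in knockdown libraries, against 117.3, 115.7, 106.6 and 111.8 CPM in control libraries. KIF14 had 19.8, 22.9, 16.8 and 17.1 CPM in knockdown libraries, against 42.2, 41.2, 38.7 and 43.7 CPM in control libraries. CENPF had 169.0, 182.2, 143.0 and 144.8 CPM in knockdown libraries, against 252.3, 258.9, 249.8 and 259.0 CPM in control libraries. In these 3 genes the range within the knockdown group remained smaller than the distance to the lowest control library. The same held for CENPE, with 23.3 to 32.8 CPM in knockdown libraries and 48.96 CPM in the lowest control library. It did not hold for MKI67, with 200.7 to 250.8 CPM in knockdown libraries and 297.8 CPM in the lowest control library. The mean of knockdown libraries 3 and 4 was 81.1% of that of libraries 1 and 2 for the 5 long genes and 94.8% for the 35 shorter ones (medians). For 3668 other tested genes of more than 7000 bases the median was 98.9%, and their median log2 fold change between the groups was 0.015. The part that RNA quality or library preparation has in the spread of the long genes was not tested.

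**Figure D4:**
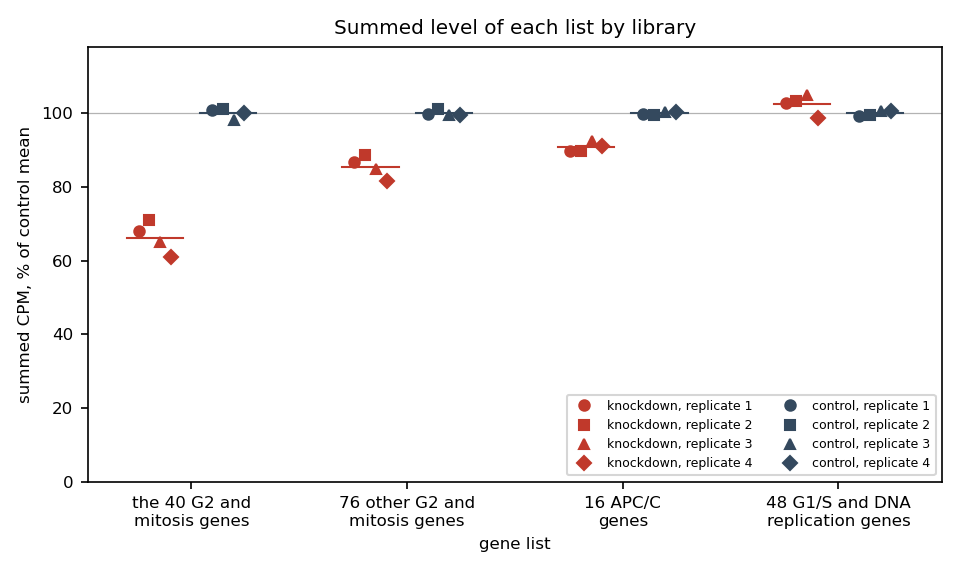
Summed CPM of 4 gene lists in each library, as a percentage of the mean of the control libraries (vertical axis, from 0), with 1 point per library, knockdown in red and control in dark blue, marker shapes for replicate numbers and a line at each group mean. The 40 genes stood at 66.3% of control in knockdown, the other G2 and mitosis genes at 85.5%, the APC/C genes at 90.8% and the G1/S and replication genes at 102%.

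Most of the other G2 and mitosis genes were also lower. Of 76 such genes outside the set, 57 were lower (75%, against 25.9% of all genes tested), 6 higher (7.89%, against 25.2%) and 13 not called, with a median log2 fold change of -0.29. The smallest adjusted p among those that fell belonged to SGO2, which protects centromeric cohesion, at 16.9 ± 1.64 CPM in knockdown and 33.9 ± 1.44 CPM in control (SD, n = 4 each; log2 -1.003, edgeR adjusted p = 1.83e-14), then HJURP, the chaperone that loads CENPA (log2 -0.72, edgeR adjusted p = 2.35e-14), and NUF2, the partner of NDC80 (log2 -0.97, edgeR adjusted p = 5.46e-14). CENPU and CENPM, of the inner kinetochore, and FANCI, of interstrand crosslink repair, were higher, by log2 fold changes of 0.24, 0.31 and 0.19 (edgeR adjusted p = 7.75e-05, 0.000143 and 9.41e-05). Of 16 APC/C genes, with which CDC20 and UBE2C work, 7 were lower (43.8%, against 25.9% of all genes tested), none was higher (against 25.2%) and 9 were not called, with a median of -0.11. CDC27 at -0.39, UBE2S at -0.40 and ANAPC1 at -0.22 had the smallest adjusted p.

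The regulators of these promoters were called in either direction about as often as all genes tested. Of 18 genes for MuvB, DREAM, B-MYB, E2F and NF-Y subunits, 5 were lower (27.8%, against 25.9% of all genes tested), 6 higher (33.3%, against 25.2%) and 7 not called, with a median log2 fold change of -0.04. E2F7, a repressor E2F, stood at 0.51, the NF-Y subunit NFYC at 0.40 and the E2F partner TFDP2 at 0.28. RBL2 (p130), the pocket protein of DREAM, stood at -0.47, E2F5 at -1.03 and the NF-Y subunit NFYA at -0.22. MYBL2 (B-MYB) was outside the rule for naming and was added after its value was seen; it stood at 0.19 (edgeR adjusted p = 0.00285) with overlapping groups.

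Genes of the preceding phase did not fall as a group. Of 48 G1/S and DNA replication genes, 11 were lower, 15 higher and 22 not called, or 22.9% lower and 31.2% higher against 25.9% and 25.2% over all genes tested, and their median log2 fold change was 0.0067. GINS4, MCM5 and TK1, of the replicative helicase and of thymidine salvage, were higher by 0.46, 0.30 and 0.26, and MCM6, DBF4 and CCNE1 lower by log2 fold changes of -0.46, -0.66 and -0.40. Their summed level was 4543 to 4839 CPM in knockdown libraries, against 4574 to 4637 CPM in control libraries, so the groups overlapped. Of 7 CDK inhibitor genes, 3 were higher (42.9%, against 25.2% of all genes tested), 1 lower (14.3%, against 25.9%) and 3 not called. CDKN1A (p21), CDKN2B (p15) and CDKN1C (p57) were higher by 0.58, 0.51 and 0.31, and CDKN2C (p18) stood at -0.43.

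**Figure D5:**
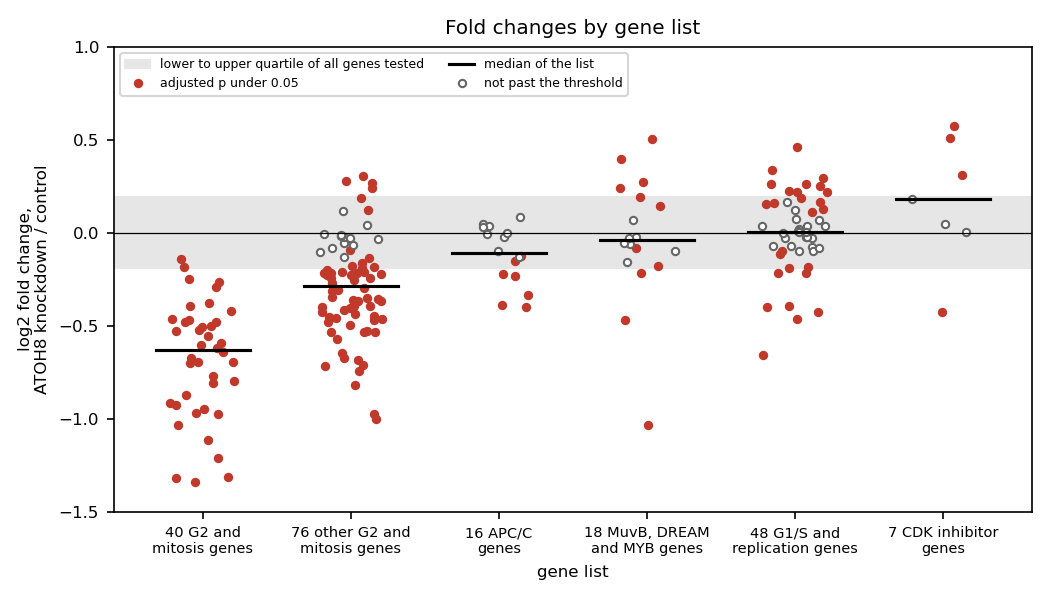
Log2 fold change of ATOH8 knockdown over control (vertical axis) for each gene of 6 lists, filled red where the adjusted p was under 0.05 and open where it was not, with a bar at each list's median and a grey band from the lower to the upper quartile of all genes tested. The 40 genes lie wholly below 0 at a median of -0.63, the 76 other G2 and mitosis genes are centred at -0.29 and the 48 G1/S and replication genes lie on both sides of 0.

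Markers of other kidney and blood cells moved beside these genes and are given as measured. The summed level of 14 podocyte genes was 2324 to 2420 CPM in knockdown and 2228 to 2350 CPM in control. Its largest parts were ACTN4, with means of 1205 CPM in knockdown and 1030 CPM in control, and KIRREL1, with 489.1 and 625.6 CPM. Of the 10 tested, 4 were higher and 4 lower. Over all genes tested, 25.2% were higher and 25.9% lower, the shares to set beside this count and those that follow. For 10 mesangial and pericyte genes the sum was 684.3 to 720.7 CPM in knockdown and 601.3 to 622.8 CPM in control. Of the 7 tested, 5 were higher and 1 lower. Most of that sum was MCAM, which was not called, while THY1 stood at 19.1 ± 1.07 CPM in knockdown and 1.69 ± 0.264 CPM in control and CSPG4 at 83.4 ± 6.95 CPM in knockdown and 22.8 ± 0.554 CPM in control (SD, n = 4 each). For 8 endothelial genes the sum was 8.82 to 10.1 CPM in knockdown and 1.95 to 2.47 CPM in control, with 3 of 4 tested higher. For 6 leukocyte genes it was 102.7 to 112.6 CPM in knockdown and 76.4 to 86.4 CPM in control, with 2 of 3 tested higher, nearly all of it CD68. Their part in the fall of the 40 genes was not tested.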

How the data were processed

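Polyadenylated RNA of 8 libraries was sequenced, 4 per group. The deposited table holds whole-number counts per gene as the authors left them; the submitters' processing notes name STAR, featureCounts, FastQC and DESeq2 with the hg19 build, with versions, annotation and strand setting not given in the sources used here. RNA had an integrity number above 7.0 and libraries were directional, per the labels' protocols. Of 60609 rows, 1 with a missing cell and 44 Y copies of pseudoautosomal genes, all at 0 counts, were left out. Gene symbols were taken from a names table (60295 genes) and GENCODE release 29 (250), and 19 genes had none. GENCODE also gave exon lengths and overlaps; its build, GRCh38, differs from hg19, so coordinates are printed only for RefSeq promoter windows of GRCh38.p14.

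Genes were kept by filterByExpr, scaled by TMM and tested with edgeR's quasi-likelihood F test (robust; edgeR 4.0.16, limma 3.58.1, R 4.3.3), group only, with p-values adjusted over all 16884 genes by the Benjamini-Hochberg method at 0.05. Fold changes are log2 of knockdown over control, SE are from the F statistic, and CPM are TMM-scaled, with SD over 4 libraries. The fit was tested on simulated data before use. The 12 pairs of libraries within groups differed by a chi-square per gene of 1.89 to 4.42, so none was a duplicate. The common biological coefficient of variation was 3.75%. Alternatives were DESeq2 size factors, the Wald test of DESeq2 1.42.0, other filters, a replicate block and leaving out each library. The 40 genes, the other lists and the promoter words were chosen with earlier results of these data known. Every library is given for the 2 genes per role with the smallest adjusted p, the largest and the smallest change, and any gene with overlapping groups; other lists name up to 3 genes per direction, by adjusted p. Words were searched in Python 3.11.15. Genes of these lists that are withheld are not reported here.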

Additional observations from a re-analysis of the deposited data

Results flagged for a closer look

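KIF20A had 1 knockdown library that stood apart from the others: knockdown library 4 at 14.25 CPM, with the other 3 knockdown libraries between 16.73 and 17.2 CPM. The gap to the nearest of them was 0.84 of the whole range of the group, above the 95% critical value of Dixon's test for 4 libraries. It was the only such value among 82 groups of 4 values that were examined, where about 1 in 20 would be set apart by chance. The log2 fold change of KIF20A was -1.25 without that library and -1.31 with it.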

How the results depend on the processing

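Under 13 alternatives, 516 of 520 values of the 40 genes kept their direction and their call, and the other 4 were FOXM1. All 40 genes were lower under DESeq2 size factors, the DESeq2 Wald test, both filters and the replicate block, and 39 or 40 when 1 library was left out; none was higher in any. FOXM1 was lost without control 1 (log2 -0.10, edgeR adjusted p = 0.0917), control 4 (-0.15, 0.0589), knockdown 3 (-0.13, 0.081) or knockdown 4 (-0.09, 0.095). With each library left out in turn, 5 to 7 genes were at least 2-fold lower, the median log2 fold change lay between -0.669 and -0.596, and 8050 to 8466 genes were called in all. Whether replicate numbers pair the libraries is not stated, and these data do not settle it. Deviations from the group means correlated at 0.00143 to 0.0574 between same-numbered libraries and at -0.0816 to 0.0328 between differently numbered ones. With the replicate block the 40 genes were lower, with a median of -0.631, FOXM1 had an edgeR adjusted p of 0.00932 and 8802 genes were called, against 8625 without it; 7755 were called by DESeq2's Wald test. The precision of a value is limited by the spread between 4 libraries a group: CENPE, CENPA and MKI67 had the largest SE of the set, 0.0983, 0.0944 and 0.0897, and FOXM1 an SE of 0.0515 for a change of -0.14.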
